A study of Mus musculus with 12 samples.

Results

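On mouse CpG island arrays, 2712 autosomal probes gave a higher MeDIP signal in every array of the ES cell line CC9mus than in any array of 3 lines with more distant mitochondrial DNA (mtDNA). They were chosen by their measured values among the 84939 probes on chromosomes 1 to 19 with a value on all 12 arrays, of which they made up 3.19%. The value was the log2 ratio of immunoprecipitated (IP) over input signal, centred on the median of each array. A probe was kept if the lowest of the 3 CC9mus arrays lay above the highest of the 9 other arrays, if the CC9mus mean exceeded the mean of the 9 by 1 or more, and if the mean of the 9 was below 2. These probes are called gained probes here, as a name for this order of the arrays. The values of CC9mus against the other lines are therefore a description and carry no test.

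All 4 lines carry the chromosomes of the CC9.3.1 ES cell line, derived from an embryo of strain 129SvEv-Gpi1c(129S6), and differ in their mtDNA. CC9mus holds mtDNA of Mus musculus, CC9spretus that of Mus spretus, CC9dunni that of Mus terricolor (named Mus dunni in the study), and CC9pahari that of Mus pahari. The lines were made by fusing enucleated cytoplasts to ES cells depleted of mitochondria, so CC9mus went through the same fusion as the others. Each haplotype is represented by 1 line, and haplotype and line cannot be told apart. Cells were undifferentiated, had been grown on mitomycin-treated feeder cells, and were held for 48 h without feeders before DNA was taken. Each line was measured on 3 replicate arrays. Nothing in the labels says that replicates came from separate cultures, so the spread between them may be technical. The comparison addressed whether the mtDNA haplotype of a cell goes with a different pattern of methylation in its chromosomes.

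CpG islands are short stretches rich in CpG dinucleotides that often lie at gene promoters. Most of them carry little 5-methylcytosine (5mC) in ES cells, while islands of imprinted and germline genes can carry a great deal. In methylated DNA immunoprecipitation (MeDIP), an antibody to 5mC pulls down methylated fragments, so a probe in a methylated and CpG-dense stretch gives a high IP signal relative to the input DNA. The ratio ranks probes by enrichment within an array and is not a percentage of methylated molecules. Here Cy5 marked the IP DNA and Cy3 the input DNA. Since the array files give probe positions on mouse build mm9 and pair no probe with a gene, probes are named by position, without gene or exon annotation.

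The arrays were not alike. Over the tested probes, the CC9mus arrays had an SD of the log2 ratio of 0.52 (replicate 1), 1.84 (replicate 2) and 2.01 (replicate 3), compared with 1.07 to 1.37 elsewhere. All 3 CC9mus arrays were scanned in the later of 2 scan periods, on a day of their own. For the other lines, replicates 1 and 2 belonged to the earlier period and replicate 3 to the later one. The part of the spread and of the scan day in the order of the arrays was not tested, and results that rest on single arrays are given with and without them.

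The gained probes were low in the 3 divergent lines and above the array median in CC9mus. Over the 2712 probes, the median log2 ratio was 0.25 on CC9mus replicate 1, 1.14 on replicate 2 and 2.64 on replicate 3. On the CC9spretus arrays it was −0.61, −0.44 and −0.35. On the CC9dunni arrays it was −0.67, −0.65 and −0.33, and on the CC9pahari arrays −0.64, −0.67 and −0.44. The 9 arrays of the divergent lines thus sat close together below the array median, and the CC9mus arrays lay above it at 3 different heights. The median of the line means was 1.33 in CC9mus, −0.50 in CC9spretus, −0.59 in CC9dunni and −0.61 in CC9pahari. The difference between CC9mus and the mean of the 9 ran from 1.00 to 5.09, with quartiles of 1.47, 1.89 and 2.30. With normexp, a background correction that models each spot's signal and noise, the median was 0.85, and 1023 of the 2712 had a difference of 1 or more. Without that correction it was 2 or more at 1173 probes and 3 or more at 113.

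**Figure D1:**
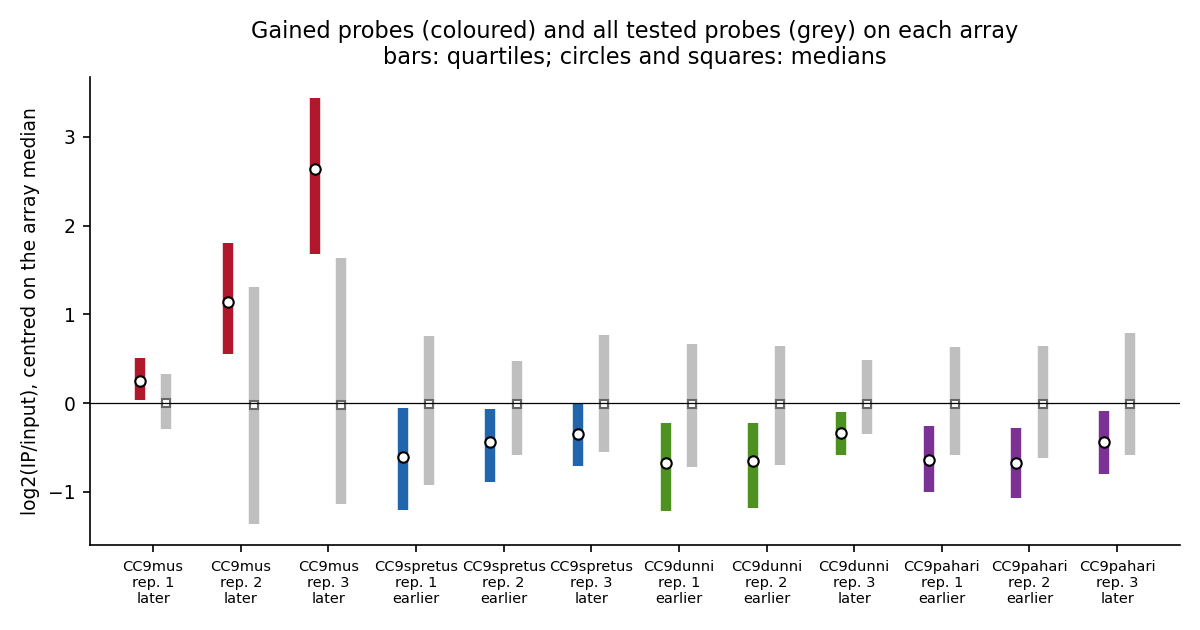
The log2 ratio of IP over input, centred on the array median (vertical axis), is shown for each of the 12 arrays (horizontal axis, with replicate and scan period). Coloured bars span the quartiles of the 2712 gained probes with their median as a circle, and grey bars span those of all 84939 tested probes with their median as a square. The gained probes lie above 0 on the CC9mus arrays, with medians from 0.25 to 2.64, and below 0 on the other 9.

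The spread between CC9mus replicates was wide at these probes. The SD over the 3 arrays of a line had a median of 1.28 in CC9mus, against 0.30 in CC9spretus, 0.31 in CC9dunni and 0.28 in CC9pahari. The lowest CC9mus array was replicate 1 at 2445 of the 2712 probes, and the highest was replicate 3 at 2341. Whether the IP of replicate 1, with its narrow spread of ratios, worked as on the other arrays was not tested, and the count of 2712 rests on that array, since 12365 probes met the rule without it. As a rank within its array, the median gained probe stood at percentile 69.7 on CC9mus replicate 1, 71.7 on replicate 2 and 84.7 on replicate 3. On the other 9 arrays it stood between percentiles 22.7 and 34.1. The gap between the lowest CC9mus array and the highest of the 9 was small at most probes, with a median of 0.23 and a highest value of 1.48. It was above 0.5 at 496 probes and above 1 at 25. The highest of the 9 was an array of the later scan period at 1580 probes, or 58.3%, against 55.3% of the tested probes.

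In terms of level, CC9mus means were above 2 at 494 gained probes, between 1 and 2 at 1357, between 0 and 1 at 789, and at or below 0 at 72. A ratio above 2 on all 3 CC9mus arrays was found at 2 gained probes, above 1 at 76 and above 0 at 2046. At 837 probes, or 30.9%, all 3 CC9mus arrays were above 0 while all 9 others were below it. The rule placed every CC9mus array above the 9 others at each gained probe, so this split at 0 is set in part by the choice. Its share over all tested probes was not counted.

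The level in the divergent lines divided the gained probes. A first class of 577 probes had a mean below −1 over the 9 arrays, with a median of −1.25, and a median of 0.78 in CC9mus. The next class of 1792 probes had a mean from −1 to 0, with medians of −0.52 in the other lines and 1.35 in CC9mus. In the third class, 343 probes had a mean at or above 0, with medians of 0.18 in the other lines and 1.96 in CC9mus. Of all tested probes, 11.2% fell in the first class, 40.4% in the next and 48.4% in the third, against 21.3%, 66.1% and 12.6% of the gained probes. Since the rule asked for low values on the 9 arrays, this shift to the lower classes is set in part by the choice. The difference had medians of 2.06, 1.85 and 1.74 in the 3 classes. The mean of the 9 is a term of this difference and of the rule, so nothing is read from a likeness across classes. The first class was also the dimmest, so its difference rests in part on signals near background. At 83.4% of its probes the IP signal was not well above background on at least 1 of the 9 arrays, against 36.5% in the next class and 6.71% in the third. The ceiling of 2 left no probe out, since the highest mean of the 9 at a gained probe was 1.23.

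Taken apart by channel, the IP signal carried the difference at most probes. With each channel centred on its median, the IP signal of the gained probes had a median of −0.37, 0.77 and 1.96 on the CC9mus arrays and of −1.27 to −0.92 on the others. The input signal had a median of −0.59 to −0.57 on the CC9mus arrays and of −0.62 to −0.46 on the others. CC9mus minus the other lines gave a median of 1.89 for IP (quartiles 1.28 and 2.48) and −0.07 for input (quartiles −0.45 and 0.31). The IP difference was above 0 at 2675 probes and larger in size than the input difference at 2412. At 178 gained probes the input was lower in CC9mus by 1 or more. The input signals also show that gained probes were dimmer than the typical probe in input DNA on all 12 arrays.

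The share of gained probes whose IP signal was well above background was 99.9%, 93.0% and 97.4% on the CC9mus arrays. Of the tested probes it was 98.7%, 75.3% and 88.5% there. The share of gained probes was lowest on CC9dunni replicates 1 and 2, at 63.7% and 65.1%, beside 80.1% and 80.7% of the tested probes. On CC9pahari replicates 1 and 2 it was 70.5% and 75.3%, beside 84.0% and 86.6%. On CC9spretus replicates 1 and 2 it was 89.3% and 81.9%, beside 93.3% and 89.9%. On the later arrays of CC9spretus, CC9dunni and CC9pahari it was 92.3%, 96.6% and 91.2%, beside 93.9%, 96.0% and 93.2%. All 12 arrays had an IP signal well above background at 1544 gained probes, or 56.9%, against 67.3% of the tested probes. At 52 gained probes none of the 9 arrays did. At 49 of these at least 1 CC9mus array was well above background, and at the other 3 none was. No fold is given for these 52, since the ratios in the divergent lines rest on signals near background. No gained probe was saturated.

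The 5 gained probes with the largest difference, taking 1 per locus, show the range of patterns. The largest was on chromosome 12 from 110766379 to 110766427 (49 bp, mm9). Its log2 ratio was 3.89, 7.73 and 7.34 on the CC9mus arrays. CC9spretus stood at 2.45, 3.43 and 2.78, CC9dunni at 1.32, 0.84 and −0.37, and CC9pahari at −0.31, −0.01 and 0.94. CC9mus was highest, CC9spretus was intermediate with all its arrays above those of the other two, and CC9dunni and CC9pahari overlapped. The difference between CC9mus and the 9 others was 5.09, with the IP signal higher by 4.63. The F test among the 3 divergent lines gave an adjusted p of 0.0908 in limma at this probe, so their order did not pass the threshold. This was also the gained probe with the highest value on CC9mus replicate 1, and the only gained probe among the 4 tested probes of its locus.

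The next was on chromosome 14 from 84847505 to 84847563. The CC9mus arrays gave 0.62, 3.51 and 3.29. CC9spretus gave −1.73, −1.70 and −0.73, CC9dunni −2.54, −2.16 and −0.50, and CC9pahari −2.74, −2.70 and −0.97. No array of the divergent lines was above 0, and replicate 3, from the later period, was the highest of each line. The difference was 4.23, and 1.42 with normexp background correction, under which the probe no longer met the rule. Of the 9 arrays, 3 had an IP signal well above background.

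On chromosome 5 from 74042859 to 74042911, the CC9mus arrays gave 0.46, 2.33 and 3.64 and the 9 others lay between −3.13 and −0.37. The difference was 3.87, and all 4 tested probes of its locus were gained. The IP signal of this probe was well above background on 4 of the 9 arrays. On chromosome 19 from 30104333 to 30104389, CC9mus gave 0.07, 1.91 and 3.40, and the 9 others lay between −2.98 and −1.39. This probe was also chosen for its gap, and of the 9 arrays 1 had an IP signal well above background. On chromosome 11 from 11938103 to 11938162, CC9mus gave 0.91, 4.02 and 2.63, and the 9 others lay between −2.58 and 0.14. With normexp these 3 differences were 1.20, 0.996 and 1.79, against 3.87, 3.84 and 3.77. The probe on chromosome 19 no longer met the rule under normexp.

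**Figure D2:**
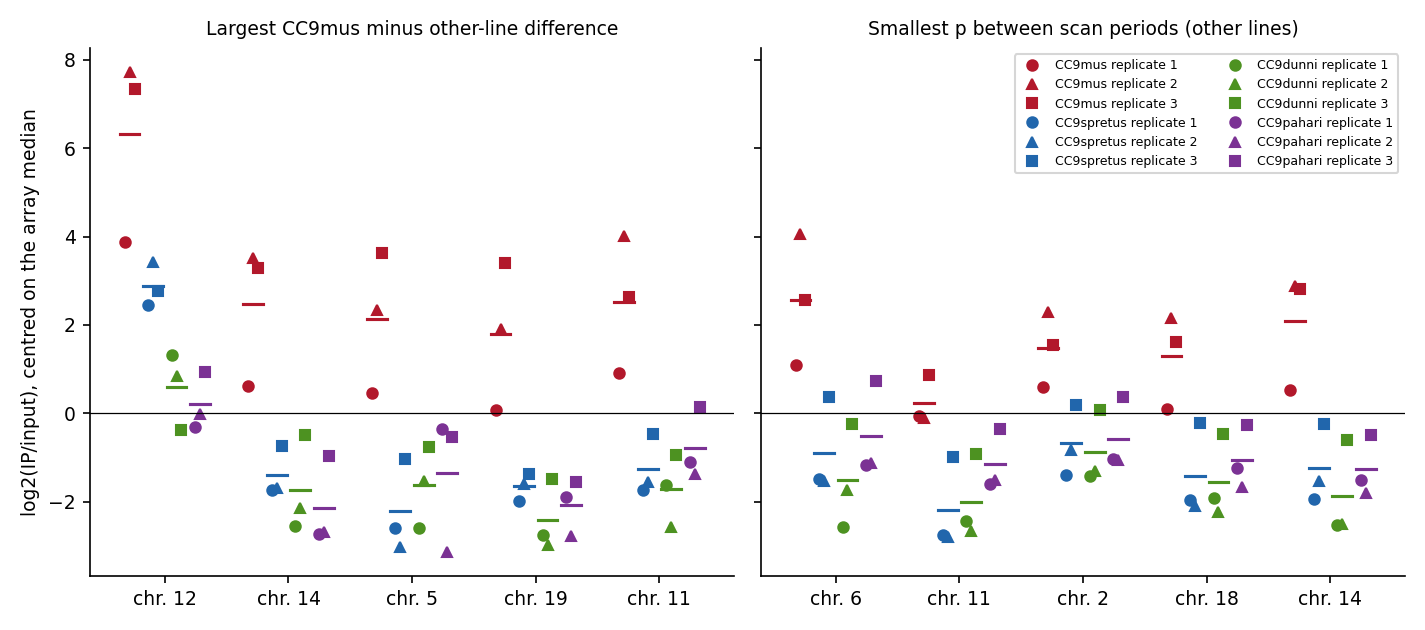
The log2 ratio of IP over input, centred on the array median (vertical axis), is shown at 10 gained probes named by chromosome (horizontal axis). Symbols stand for single arrays, colours for lines and short lines for the mean of 3 arrays. On the left are the 5 probes with the largest difference, from 3.77 to 5.09, and on the right the 5 with the smallest p between scan periods, where the squares of the divergent lines, from the later period, lie above their other symbols.

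The probes chosen for the widest gaps between CC9mus and the other lines were low in the divergent lines, where few arrays had an IP signal well above background, so their gaps are not ranked here. On chromosome 10 from 120416815 to 120416870, CC9mus gave 1.05, 0.04 and 0.72 and the 9 others −2.70 to −1.44. The IP signal there was well above background on 1 CC9mus array and on none of the 9, and no fold is given. The input signal was lower in CC9mus by 1.48, more in size than the difference in the IP signal. On chromosome 10 from 85391079 to 85391130, CC9mus gave 0.51, 1.10 and 0.95 and the 9 others −2.98 to −0.94. The CC9mus replicates lay close together here, with a mean of 0.85 ± 0.30 (SD, n = 3) against −1.67 ± 0.75 (SD, n = 9). Only 2 of these 9 arrays had an IP signal well above background here, and the difference was 2.52, or 0.67 with normexp. On chromosome 14 from 61665196 to 61665244, CC9mus gave 0.78, 2.14 and 3.17 and the 9 others −2.00 to −0.57, with an IP signal well above background on 3 of the 9. On chromosome 4 from 44677359 to 44677412, CC9mus gave −0.03, 0.37 and 2.36 and the 9 others −2.95 to −1.38. At the last, the IP signal was well above background on 2 CC9mus arrays and on none of the 9, and no fold is given.

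At the other end of the scale were gained probes whose mean stayed below the array median in CC9mus. The lowest mean over the 9 was −2.28, on chromosome 13 from 23667626 to 23667684, where CC9mus gave −0.56, −0.65 and 0.31 and CC9dunni went down to −4.12. On chromosome 2 from 49922579 to 49922638, CC9mus gave −0.50, −0.27 and −0.68 and the 9 others −3.49 to −1.35. On chromosome 14 from 73726123 to 73726176, CC9mus gave −0.35, −0.05 and −0.72 and the 9 others −3.95 to −1.15. Of the 9 arrays, 7, 1 and 3 had an IP signal well above background at these probes in turn. The 3 probes had a difference of 1.77 to 1.98. With normexp the differences were 0.31, 0.10 and −0.13, so that the direction turned at the third.

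CC9mus replicate 1 had few high values, with 79 gained probes above 1 and 7 above 2. After the probe on chromosome 12, its highest were on chromosome 9 from 78275313 to 78275359, with 2.99 on replicate 1, 1.82 and 2.65 on the other two, and −0.28 to 1.63 on the 9 others, and on chromosome 3 from 14886016 to 14886075. At the latter, CC9mus gave 2.97, 1.40 and 1.21 and the 9 others −0.78 to 0.88, but the IP signal was not well above background on any of the 12 arrays, and no fold is given. The input signal was lower in CC9mus by 1.61 at this probe.

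The values at the edges of the rule were close to one another. The gained probe with the smallest difference, 1.00, was on chromosome 7 from 148380579 to 148380638, with means of −0.51 in CC9mus and −1.51 in the others. Just outside, on chromosome 5 from 3802623 to 3802667, the order of the arrays was met and the means were −0.36 and −1.36. The order alone was met by 3270 probes, of which 558 had a difference under 1. A difference of 1 or more was found at a further 7907 probes at which the order was not met.

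The same rule with another line in the place of CC9mus was met by fewer probes. The lines are not alike in this comparison. CC9mus replicates 2 and 3, with the widest spread, are then among the 9 arrays to exceed. The arrays of each other line also come from both scan periods, while those of CC9mus share a scan day. The part of this in the counts was not tested. It was met by 29 probes for CC9spretus, 255 for CC9dunni and 43 for CC9pahari. The mirrored rule, with all 3 arrays of a line below the 9 others and a difference of at least 1, was met by 1303 probes for CC9mus, 71 for CC9spretus, 115 for CC9dunni and 362 for CC9pahari. In CC9mus, probes higher by the rule were thus more numerous than probes lower by the mirrored rule. Of the 1542 loci with a gained probe, 29, or 1.88%, also held a probe that was lower in CC9mus by the mirrored rule, beside 7.90% of the loci tested.

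To see the gained probes in an array that had not chosen them, each CC9mus array was left out in turn and then read at the probes chosen by the other two. The arrays of the divergent lines took part in the choice and in the reading. Probes chosen for low values on these 9 arrays are easier to exceed, so the shares below are a description and their excess over the background is fixed in part by the choice. Without replicate 3, 2393 probes were chosen, and replicate 3 lay above all 9 other arrays at 2009 of them, or 84.0%, against 31.5% of all tested probes. Its median at the chosen probes was 2.36. Without replicate 2, 3502 probes were chosen, and replicate 2 lay above the 9 at 2689 of them, or 76.8%, against 27.7% of all tested probes. Its median was 0.73. Without replicate 1, 12361 probes were chosen, and replicate 1 lay above the 9 at 2841 of them, or 23.0%, against 17.8% of all tested probes. Its median there was 0.37 and its values stood at a median percentile of 76.9 within the array. The share was near the background for replicate 1 even so.

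Gained probes lay in 1542 of the 14168 loci tested, or 10.9%. Neighbouring probes were joined into a locus where no more than 1000 bp separated them. The 948 loci with 1 gained probe were the most frequent, followed by 310 with 2, 144 with 3, 63 with 4, 39 with 5 and 38 with 6 or more, up to 11. The 594 loci with 2 or more held 1764 of the gained probes, or 65.0%. Among the 1497 loci of 3 or more probes that held one, 50% or more of the probes were gained in 170. In 12 loci with several probes every one was gained. Neighbouring probes on the array can bind the same fragment, since the DNA was sheared to 200 to 1000 bp, so probes of a locus are not independent measurements.

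Runs of neighbouring gained probes were mostly short. There were 2045 runs, of which 1596 held 1 probe, 308 held 2, 94 held 3, 26 held 4 and 21 held 5 or more. Runs of 2 or more took in 1116 of the gained probes, or 41.2%. The longest had 7 probes over 751 bp, on chromosome 8 from 12430378 to 12431128, with a mean difference of 2.03. Among the runs of 6 were one on chromosome 1 from 89050639 to 89051351, with a mean difference of 2.63, and one on chromosome 16 from 36041262 to 36041792 that took in every probe of its locus, with a mean difference of 2.57.

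The 5 loci with the most gained probes show whole stretches that were higher in CC9mus. The locus on chromosome 5 from 33772994 to 33778243 spanned 5250 bp and held 39 tested probes, of which 11 were gained and all 39 had a higher mean in CC9mus. Averaged over its probes, the log2 ratio was 0.06, 1.19 and 2.89 on the CC9mus arrays and −0.24 to 0.24 on the 9 others. Replicate 1 lay inside the range of the other lines here, and replicates 2 and 3 above it. The line means were 1.38 ± 1.43 in CC9mus, −0.06 ± 0.26 in CC9spretus, −0.11 ± 0.15 in CC9dunni and −0.06 ± 0.12 in CC9pahari (SD, n = 3 each).

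At the locus on chromosome 14 from 84845693 to 84847917, 10 of 21 probes were gained and all 21 were higher in CC9mus. Its mean was 0.28, 2.04 and 3.01 on the CC9mus arrays and −0.69 to −0.11 on the 9 others, without overlap. At the locus on chromosome 14 from 80168173 to 80171320, 10 of 25 probes were gained and the mean was 0.47, 2.09 and 3.80 on the CC9mus arrays against 0.02 to 0.24 on the others. At the locus on chromosome 1 from 89050547 to 89052507, 9 of 12 probes were gained and the mean was 0.40, 1.99 and 3.49 against −0.32 to 0.05. At the locus on chromosome 9 from 62991857 to 62994531, 9 of 22 probes were gained and the mean was 0.31, 1.57 and 2.97 against −0.24 to 0.05. In these 4 loci all 3 CC9mus arrays lay above the 9 others in the mean over the locus, in the same order of replicates. The loci were chosen for their gained probes, and these enter the means, so this order is set in part by the choice. The differences averaged over all probes of the 5 loci were 1.45, 2.27, 2.03, 2.14 and 1.73.

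**Figure D3:**
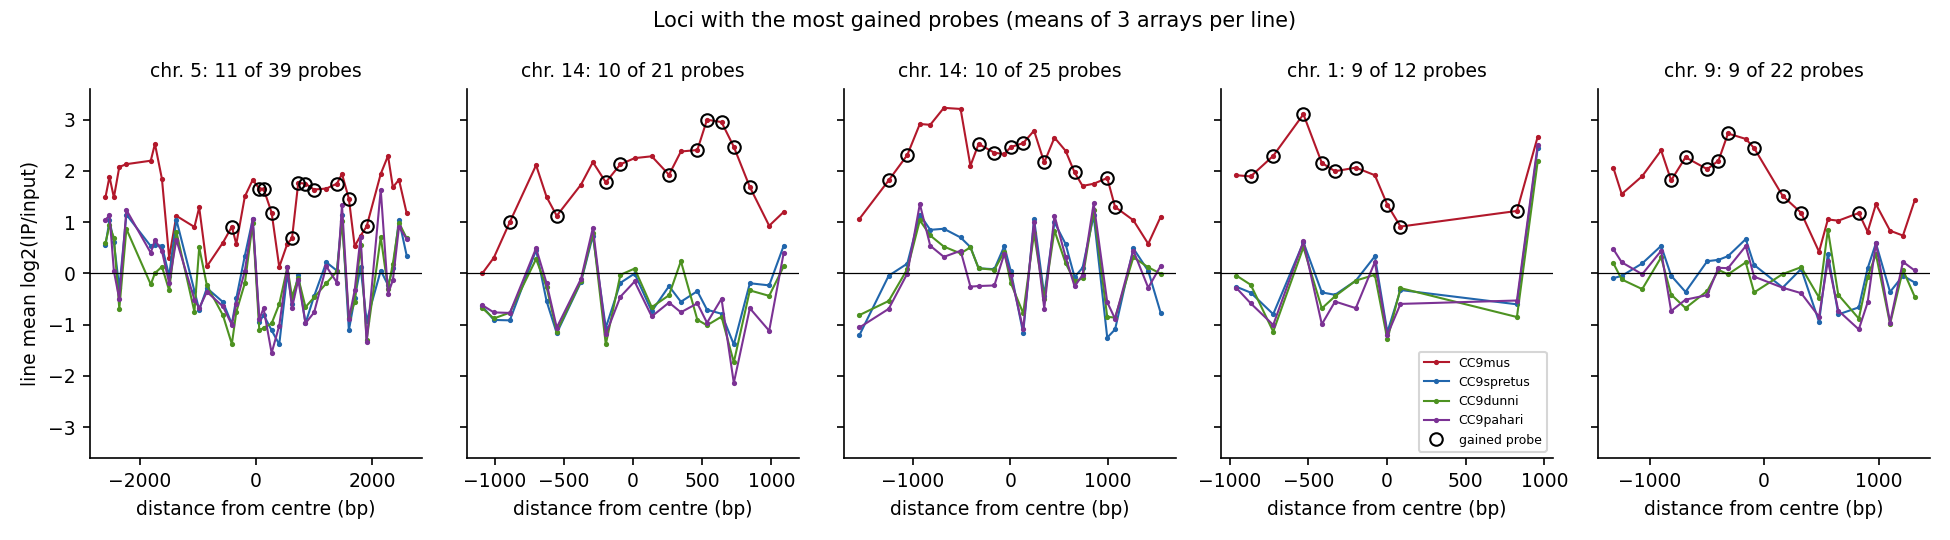
The mean log2 ratio of the 3 arrays of each line (vertical axis) is shown along the 5 loci with the most gained probes, against the distance in bp from the centre of the locus (horizontal axis). Each point is a probe, colours stand for lines and black circles mark gained probes. The CC9mus mean lies above the other 3 lines along each locus, and the 3 divergent lines follow nearly the same peaks and troughs.

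The other probes of these loci were also mostly higher in CC9mus, without meeting the rule. Their median difference was 1.09, 1.70, 1.84, 1.74 and 1.60 in the 5 loci, and 27, 11, 15, 3 and 13 of them missed the rule by the order of the arrays. Over all 1542 loci, the 9743 other probes had a median difference of 0.65 and were above 0 at 78.1%. The 72484 probes in loci with no gained probe had a median of −0.16 and were above 0 at 40.8%. Within 100 bp of a gained probe, the median difference of the other probes was 1.06, with 93.5% above 0. It was 0.99 from 100 to 200 bp, 0.84 from 200 to 300 bp, 0.65 from 300 to 500 bp and 0.32 from 500 to 1000 bp. Beyond 50000 bp it was −0.17. Their level in the divergent lines went down less, from 0.28 within 100 bp to 0.02 from 500 to 1000 bp, and was above that of the gained probes throughout.

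**Figure D4:**
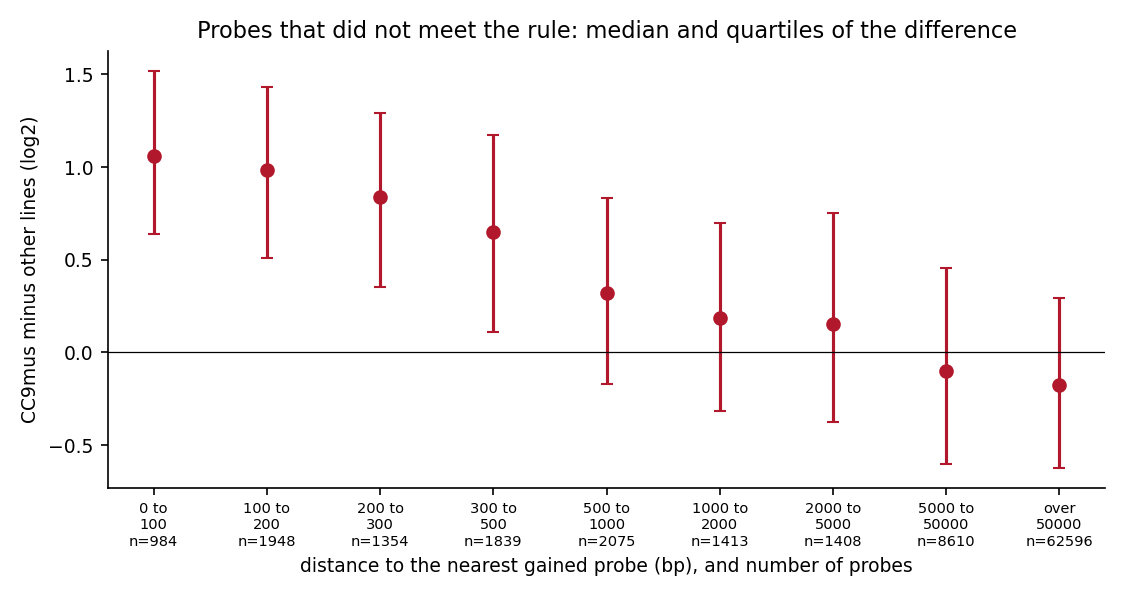
The difference between CC9mus and the other lines on the log2 scale (vertical axis) is shown for probes that did not meet the rule, by distance in bp to the nearest gained probe (horizontal axis, with the number of probes). Points are medians and bars span the quartiles over probes. The median goes down from 1.06 within 100 bp to −0.17 beyond 50000 bp.

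Gained probes were found on all 19 autosomes. Their share of the tested probes ran from 2.39% on chromosome 10 to 3.94% on chromosome 8. By number, chromosome 2 held the most, with 242, and chromosome 16 the fewest, with 64. The median difference on each chromosome lay between 1.69 and 2.16. The input signal, which should follow the amount of DNA, was not level between lines on a pair of chromosomes. The median over the tested probes of CC9mus minus the other lines was −0.25 on chromosome 8 and 0.39 on chromosome 6, and lay between −0.05 and 0.10 on the other autosomes. A lower input raises the ratio only where the IP signal does not fall with it, and the IP signal was not read by chromosome. Whether the input bears on the share of gained probes was not tested. When each chromosome of each array was centred on its own median, chromosome 8 held 136 probes that met the rule, or 2.76%, in place of 194, and chromosome 6 held 141 in place of 138. In all, 2642 probes then met the rule, 2533 of them gained probes.

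**Figure D5:**
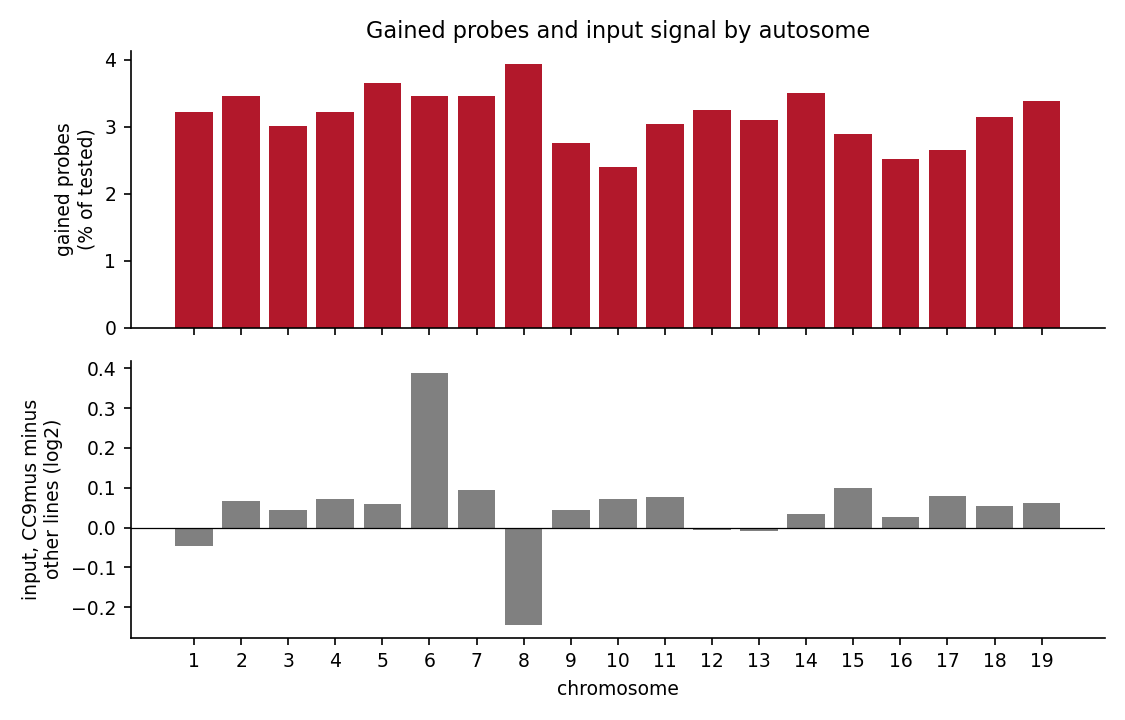
The upper bars give the gained probes as a percentage of the tested probes of each autosome (vertical axis). The lower bars give the median input signal of CC9mus minus that of the other lines, on the log2 scale, over the tested probes. Chromosome 8 has the highest share, 3.94%, and the lowest input, −0.25, and chromosome 6 has the highest input, 0.39, with a share of 3.45%.

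Some features that the rule did not use set the gained probes beside all tested probes. Loci with gained probes had a median of 7 probes and a width of 861 bp, against 5 probes and 650 bp for all loci. A locus with more probes has more chances to hold a gained one, so these sizes are in part set by the choice. The share of gained probes was 2.56% in loci of 1 or 2 probes, 2.57% in loci of 3 to 5, 2.88% in loci of 6 to 10, 4.47% in loci of 11 to 20 and 7.30% in loci of 21 to 40. Large loci thus held more of them per probe. In loci of 3 or more probes, 27.8% of the gained probes were the first or last of the locus, against 31.4% of the tested probes. Probes are 45 to 60 bp long, and longer probes were gained more often. The share was 2.69% among probes of 45 bp, 3.97% at 46 to 50 bp, 5.56% at 51 to 55 bp and 5.16% at 56 to 60 bp.

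The divergent lines were also compared among themselves. The rule used these 9 arrays too, since their highest value and their mean had to be low, and it passes over probes at which a divergent line was high. The shares of gained probes called are therefore conditioned on the choice, and nothing is read from them against the shares of all probes. limma was fitted to these 9 arrays with the scan period in the model. At an adjusted p under 0.05 (Benjamini-Hochberg, all probes), 0 of the 2712 gained probes differed among CC9spretus, CC9dunni and CC9pahari, where 183 of 88737 probes, or 0.206%, did. At an unadjusted p under 0.05 the gained probes numbered 301, or 11.1%, beside 15.3% of all probes. With the replicate number as a block in place of the period, the probes called in limma fell to 16, with 0 gained probes among them. The range over the 3 line means had a median of 0.36 at the gained probes and 0.38 at the tested probes. CC9spretus had the highest of the 3 means at 1300 gained probes, CC9dunni at 714 and CC9pahari at 698. These counts were not set beside all tested probes, so nothing is read from them about the gained probes. The 9 gained probes called when probes with a dim IP signal were left out were of 1554 tested, beside 2.62% of all probes in that fit.

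The lowest adjusted p among the lines was 0.0708 in limma, on chromosome 11 from 120096908 to 120096956. CC9spretus gave −0.92, −0.97 and −0.05 there, CC9dunni −1.83, −1.56 and −0.52, and CC9pahari −0.46, −0.62 and 0.35, against 0.44, 2.68 and 2.76 in CC9mus. In each replicate CC9pahari was above CC9spretus and CC9spretus above CC9dunni. It was the only gained probe called between a pair of lines, with CC9pahari above CC9dunni by 1.06 (standard error 0.16, adjusted p = 0.0428 in limma). Between that pair 0.414% of all probes were called. No gained probe was called between that pair with the replicate number as a block, without the scan period in the model, with normexp, with the slide as a random block or in 6 of the 9 limma fits that left out 1 array. In the first 4 of these fits 0.0947%, 0.0620%, 0.0620% and 0.0203% of all probes were called. With equal median absolute deviations 7 gained probes were called between the pair in limma, without probes of dim IP signal 13 of the 1554 then tested, and without centring 2, beside 0.550%, 2.51% and 0.710% of all probes. Without CC9spretus replicate 2 the number was 2, beside 0.843% of all probes. No gained probe was called between CC9dunni and CC9spretus or between CC9pahari and CC9spretus, where 0.0293% and 0.0225% of all probes were. At an unadjusted p under 0.05 in limma, 316 gained probes (11.7%) and 234 gained probes (8.63%) differed between these pairs, beside 13.1% and 11.5% of all probes. Between CC9pahari and CC9spretus, limma called 6 gained probes without probes of dim IP signal and 1 without centring, beside 1.14% and 0.287% of all probes.

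At the next 4 of lowest p the order was another. On chromosome 5 from 144055175 to 144055220, the means were −0.04 ± 0.11 in CC9spretus, 0.12 ± 0.17 in CC9dunni and −0.77 ± 0.15 in CC9pahari (SD, n = 3 each). CC9mus gave 0.48, 1.87 and 4.21. On chromosome 8 from 72608812 to 72608856, the means were 0.28 ± 0.32, −0.04 ± 0.28 and −0.68 ± 0.39 in the same order of lines. On chromosome 11 from 49608517 to 49608566, they were −2.18 ± 1.04, −2.01 ± 0.95 and −1.15 ± 0.69. On chromosome 5 from 111848921 to 111848965, they were 0.81 ± 0.15, 0.55 ± 0.14 and −0.28 ± 0.24. CC9pahari was thus the lowest of the divergent lines at 3 of these probes and the highest at the one on chromosome 11. The adjusted p in limma lay between 0.0740 and 0.0856 at these 4, and none passed the threshold. With probes of dim IP signal left out, it was 0.021 and 0.023 at the probes on chromosome 5.

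Scan periods were compared within the divergent lines, on the arrays that also took part in the choice, so these shares too are conditioned on it. In the same fit, 388 gained probes were higher in the later period and 33 lower in limma, or 14.3% and 1.22%, beside 16.4% and 6.19% of all probes. With the slide as a random block the limma calls among the gained probes fell to 39 higher (1.44%) and 0 lower, beside 3.58% and 0.735% of all probes. Without CC9spretus replicate 3 they fell to 106 (3.91%) and 7 (0.258%), beside 5.42% and 1.94%. With normexp 28 (1.03%) were higher and 9 (0.332%) lower in limma, beside 2.52% and 3.78% of all probes, so that over all probes the balance of higher and lower turned. Later minus earlier had a median of 0.25 at the gained probes and 0.17 at the tested probes, and was above 0 at 76.0% and 63.0% of them. On the log2 scale the later arrays of the divergent lines thus lay nearer to CC9mus than the earlier ones. By rank within the array this held in CC9spretus and CC9pahari but not in CC9dunni. There the median percentile was 25.7 on the later array and 26.1 and 26.2 on the earlier ones. CC9mus exceeded the 3 later arrays of the other lines by a median of 1.72 and the 6 earlier arrays by 1.98. Against the later arrays the mean difference was 1 or more at 2453 of the 2712 gained probes. With only the 3 later arrays to compare with, 4186 probes met the rule, and these included the same 2453. The CC9mus arrays had a scan day of their own, so within the later period scan day and line cannot be told apart.

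The largest effect of the period among the probes of smallest p was on chromosome 6 from 6810707 to 6810766. The earlier arrays there gave −1.49 and −1.54 in CC9spretus, −2.58 and −1.73 in CC9dunni and −1.17 and −1.13 in CC9pahari. The later arrays gave 0.36, −0.23 and 0.73. CC9mus gave 1.08, 4.06 and 2.56. Every later array lay above every earlier one, and below the CC9mus arrays. Later minus earlier was 1.89 (standard error 0.19, adjusted p = 0.00186 in limma). At the other 4, on chromosome 11 from 49608517 to 49608566, chromosome 2 from 104857193 to 104857237, chromosome 18 from 37180257 to 37180310 and chromosome 14 from 80174156 to 80174205, it was 1.55, 1.40, 1.53 and 1.52. With normexp the calls on chromosomes 11, 18 and 14 were lost (adjusted p = 0.207, 0.291 and 0.0701 in limma). Against the later arrays alone, CC9mus was higher by 2.28 at the probe on chromosome 6, 0.98 on chromosome 11, 1.25 on chromosome 2, 1.61 on chromosome 18 and 2.53 on chromosome 14. With normexp the difference from all 9 arrays at the probe on chromosome 11 was 0.08, against 2.01.

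How many probes met the rule depended on the treatment of dim signals and on single arrays. With normexp background correction 1542 probes met it, 612 of them gained probes. Of the 2712, 2695 still had a higher mean in CC9mus under normexp, and 841 kept the order of the arrays. The median difference was 0.85 under normexp. Scaling every array to the same median absolute deviation left the count near its value, at 2923, with 2082 gained probes among them and a median difference of 1.37. Without CC9mus replicate 1 the rule was met by 12365 probes, without replicate 2 by 3503 and without replicate 3 by 2405. These counts include probes with no value on the array left out, which the reading of the left-out array above could not use. Under 7 other ways of processing the same arrays, 489 gained probes in 323 loci met the rule every time. They had a median CC9mus mean of 1.96 and a median of −0.31 over the 9 others. Of the 5 loci described above, that on chromosome 14 from 80168173 held 8 of them, that on chromosome 1 held 6, that on chromosome 5 held 4, that on chromosome 9 held 3 and that on chromosome 14 from 84845693 held 2.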

How the data were processed

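Methylation was measured on 12 Agilent 2-colour CpG island arrays, 3 for each line, grouped by the sample labels. The authors deposited scanner files from Agilent Feature Extraction (version 11.0.1.0 in the submitters' processing notes), in which signals are intensities after background subtraction and dye normalisation. The ratios the authors deposited are log10 of IP over input, and the series table held the same values (largest difference 0). The authors' later gene lists were not used. Here log2 ratios were computed from the deposited processed intensities for 88737 probes without the 5950 control spots. Outlier-flagged spots were set missing, and the median of each array was subtracted. Of the 85850 autosomal probes, 911 lacked a value. The members, loci and named probes were chosen with earlier results of these data known.

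Lines and scan period were tested with limma 3.58.1 (R 4.3.3, lmFit and eBayes, 9 arrays, 5 residual degrees of freedom, Benjamini-Hochberg over all probes). The fit was tested on simulated data. Deviations from the line means were correlated between arrays of different divergent lines. Between the arrays of number 3, the later scan period, the correlations were 0.39 to 0.54. Among replicates 1 and 2 they were 0.12 to 0.32 for the same number and 0.07 to 0.37 for different numbers. Apart from the scan period, the replicate numbers thus showed no pairing of the arrays. Probes were named by these rules: the 5 largest differences and 5 widest gaps (1 per locus), the 5 loci with most members, values on each side of the limits, the 5 smallest p among lines and between periods, the 3 lowest other-line means and the 3 highest on CC9mus replicate 1. Alternatives were ratios not centred, normexp (offset 50), the deposited ratios, equal spread, outliers kept, dim probes left out, other limits, the later period alone, blocks for replicate number and slide, and each array left out. Added after seeing the data were percentile ranks, the order of the arrays alone and centring by chromosome. Arrays have no read depth, and 3 arrays per line limit the precision. Python 3.11.15, numpy 2.4.6, pandas 2.3.3 and matplotlib 3.10.9 were used.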

Additional observations from a re-analysis of the deposited data

How the results depend on the processing

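The number of probes that met the rule was 2712. It was 1542 with normexp, 1544 without probes of dim IP signal, 1173 with a difference of 2 or more, 4186 against the later scan period only and 5148 by the order of percentile ranks alone, an alternative added after the data were seen. With 1 array left out it ran from 2405 (without CC9mus replicate 3) to 12365 (without CC9mus replicate 1), and from 2731 to 3107 when the array was of a divergent line. With the other settings run it lay between 2490 and 3270. Loci with gained probes numbered 1511 to 1565 with gaps of 2000 or 500 bp. Gained probes that differed among the divergent lines in limma numbered 0 with the replicate number as a block, as in the fit without it, and 0 under every other setting except for 9 without dim IP probes, and leaving out any 1 array gave 0. At an unadjusted p under 0.05 the block gave 254 in limma (9.37%, beside 13.3% of all probes). Gained probes that differed between scan periods numbered 421 (15.5%, beside 22.6% of all probes), 268 without centring (9.88%, beside 20.4%), 37 with normexp (1.36%, beside 6.29%), 235 without dim IP probes (15.1%, beside 29.5%), 39 with the slide as a random block (1.44%, beside 4.31%), and 113 to 480 with 1 array left out (4.17% without CC9spretus replicate 3, beside 7.36%, and 17.7% without CC9spretus replicate 2, beside 24.8%). At the named probes, 388 differences from alternatives stayed within 1 SD of the CC9mus arrays, 25 moved further, 19 of them under normexp, and 1 reversed, to −0.13 on chromosome 14 from 73726123 under normexp. The cause was not tested. With the replicate block, the 1 gained probe called between CC9pahari and CC9dunni was no longer called in limma (0).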

Other observations

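On the X chromosome, which the selection left out, 33 of 2456 probes with 12 values met the same rule, or 1.34%.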
